A study of Mus musculus with 9 samples.

Results

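Bone-marrow-derived macrophages (Mϕs) kept for 4 days in IL-6 were compared directly with Mϕs kept for 4 days in IL-4, gene by gene. The comparison used every gene whose mean abundance over the 3 IL-6 and 3 IL-4 libraries was at least 0.5 FPKM (fragments per kilobase of transcript, scaled to library size), which kept 12804 of 53379 genes in the table. Of these, 9427 were protein-coding and 1468 had no entry in the gene annotation used for coordinates. Marrow came from the femurs and tibias of 3 C57BL/6 mice and was cultured in RPMI-1640 with serum and 10 ng/ml CSF-1 (labelled MCSF), the growth factor that turns marrow progenitors into Mϕs. After 3 days the cells received CSF-1 alone (control), CSF-1 with 10 ng/ml IL-4, or CSF-1 with 100 ng/ml IL-6 for the next 4 days, so that every group carried CSF-1 and each group held 3 libraries. The labels and the study's methods do not give the same doses, and the labelled doses of the cytokines differ, so cytokine and dose cannot be told apart. The control libraries served to place each gene that differed on the side of IL-4, of IL-6 or of both. They were also part of the fit, and so of its estimate of spread.

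IL-4 and IL-6 act on Mϕs through separate receptors. IL-4 binds IL-4Rα, which pairs with the common γ chain or with IL-13Rα1 and activates the transcription factor Stat6; in mouse Mϕs this gives the alternative activation program known for arginase-1, resistin-like α and chitinase-like 3. IL-6 binds IL-6Rα, which pairs with gp130 (encoded by Il6st) and activates Stat3, whose target Socs3 damps the same receptor; in the liver the same route switches on acute-phase proteins. Cells cultured from marrow are Mϕs for the most part, but may hold other marrow cells.

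The 6 libraries held 30307055 to 39909571 fragments. IL-4 #3 stood apart from IL-4 #1 and IL-4 #2: its root mean square distance to them was 1.22 and 1.09 log2 units, against 0.52 between those and 0.467 to 0.519 among the IL-6 libraries. All IL-4 libraries lay 1.16 to 1.75 log2 units from the IL-6 libraries. A second split crossed the groups. Transcripts of 17 intestinal genes took up 1007 to 1331 fragments per library in the controls and in IL-4 #1, and 3 to 7 fragments per library in IL-4 #2, IL-4 #3 and the IL-6 libraries. The comparison of IL-6 with IL-4 #2 and IL-4 #3 therefore stays within a single set of libraries, while every control library lies outside the set that holds the IL-6 libraries. Of 12 Mϕ identity markers 8 were higher with IL-6, and their summed FPKM ran from 6157 to 7220 with IL-4 and from 20644 to 21716 with IL-6. Cd68, a lysosomal glycoprotein of Mϕs, measured 785, 808 and 957 FPKM in the IL-4 libraries and 934, 968 and 953 FPKM in the IL-6 libraries. Spi1, the PU.1 transcription factor of the myeloid lineage, measured 112 to 134 FPKM with IL-4 and 113 to 124 FPKM with IL-6. Neither of these genes was called (log2 differences of 0.17 and -0.06).

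A gene was called when limma gave an adjusted p under 0.05 and the mean log2 difference, on log2(FPKM + 0.1), was at least 1 in size. By this rule 2643 genes differed between IL-6 and IL-4, which is 20.6% of those tested. The 1730 genes higher with IL-6 made up 13.5% of the tested genes and the 913 genes lower with IL-6 made up 7.13%. The called genes differed by a median of 1.70 log2 units when higher and -1.69 when lower, against a median standard error (SE) of 0.252. A difference of at least 5 log2 units was reached by 25 genes higher and 36 genes lower with IL-6. The libraries of one cytokine all lay above those of the other for 1727 of the 1730 and 907 of the 913 called genes, whereas 57.1% of all tested genes met that condition. Over all tested genes the median difference was 0.21 log2 units, so the values were not centred on 0. The higher genes were 65.5% of the called genes as deposited, 54.3% after median-ratio scaling (1419 higher, 1192 lower) and 50.5% after quantile normalization (1331 higher, 1303 lower). Without IL-4 #3, 1479 genes were higher and 872 lower, and 1337 and 711 of the genes called above were called again. Without IL-4 #1, 2283 were higher and 1053 lower, and 1670 and 824 were called again. The control libraries shared in the estimate of spread behind these calls. A fit of the 6 cytokine libraries alone called 1430 genes higher and 792 lower.

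**Figure D1:**
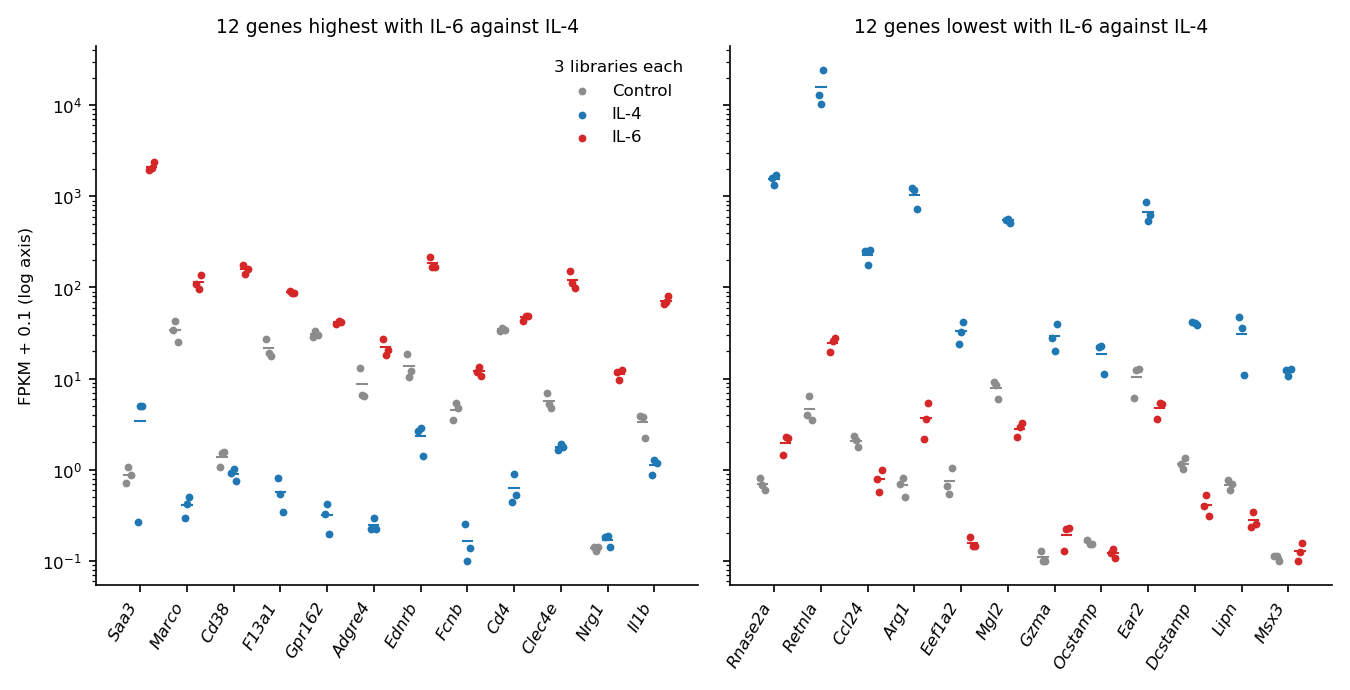
FPKM + 0.1 on a log axis (vertical) for the 12 genes highest and the 12 genes lowest with IL-6 against IL-4 (horizontal). Each point is 1 library, coloured by group (control, IL-4, IL-6, with 3 libraries each). IL-6 and IL-4 points do not overlap for any of the 24 genes, which were chosen for that; Saa3 spans the widest range, from 0.168 FPKM in IL-4 #1 to 2371 FPKM in IL-6 #3.

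The genes highest with IL-6 included those of an acute-phase protein, of receptors for microbial products, of an ectoenzyme and of an inflammatory cytokine. Saa3 (chr7:46711998-46715700, GRCm38), an acute-phase apolipoprotein that Mϕs secrete, measured 0.168, 4.91 and 4.93 FPKM in the IL-4 libraries and 1946, 2057 and 2371 FPKM in the IL-6 libraries. All IL-6 libraries lay far above all IL-4 libraries, and IL-4 #1 was the lowest of the IL-4 libraries. The log2 difference was 10.13 (SE 0.998, adjusted p = 0.000164), or a ratio of means of 637. It was 8.72 without IL-4 #1 and 10.83 without IL-4 #2 or without IL-4 #3.

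Marco (chr1:120474538-120505024), a scavenger receptor for bacteria and particles, measured 0.198, 0.326 and 0.404 FPKM with IL-4 and 108, 95.5 and 138 FPKM with IL-6. The groups were apart by 8.14 log2 units (SE 0.262, adjusted p = 8.36e-07). Cd38 (chr5:43868553-43912375), an ectoenzyme that consumes NAD, measured 0.820, 0.916 and 0.651 FPKM with IL-4 and 178, 142 and 159 FPKM with IL-6. Its difference was 7.49 log2 units (SE 0.195, adjusted p = 2.97e-07), a ratio of 201. F13a1, the A subunit of coagulation factor XIII, measured 0.712, 0.441 and 0.242 FPKM with IL-4 and 91.2, 87.9 and 87.9 FPKM with IL-6, a difference of 7.39. These 3 genes were low in every IL-4 library and high in every IL-6 library.

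Gpr162 (an orphan receptor gene) and Cd4, whose product is best known as the T-cell co-receptor, lie side by side on chromosome 6 and were close in pattern. Gpr162 measured 0.229, 0.318 and 0.0979 FPKM with IL-4 and 40.0, 43.1 and 41.7 FPKM with IL-6 (7.11 log2 units). Cd4 measured 0.348, 0.802 and 0.429 FPKM with IL-4 and 43.2, 48.5 and 48.6 FPKM with IL-6 (6.29). The control libraries held both at 28.7 to 36.2 FPKM, so the IL-4 libraries were the low ones. Clec4e, the Mincle receptor for mycobacterial glycolipids, measured 1.56, 1.83 and 1.69 FPKM with IL-4 and 153, 111 and 99.4 FPKM with IL-6 (6.06). Il1b, the inflammatory cytokine IL-1β, measured 0.767, 1.19 and 1.10 FPKM with IL-4 and 65.6, 69.5 and 79.6 FPKM with IL-6 (6.01). Nrg1, a ligand of ErbB receptors, measured under 0.1 FPKM in every IL-4 library and 11.8, 9.46 and 12.4 FPKM with IL-6 (6.05). The remaining members of the top 12 were Adgre4, an adhesion receptor of Mϕs, Ednrb, an endothelin receptor, and Fcnb, ficolin-B of the lectin complement pathway. Their differences were 6.46, 6.37 and 6.30, and Fcnb rested on 7, 0 and 2 fragments with IL-4. The sizes for Gpr162, Nrg1, Adgre4 and Fcnb were set in part by the added 0.1 FPKM. With 1 FPKM added they were 5.13, 3.51, 4.3 and 3.6. With 0.01 FPKM added they were 7.67, 7.16, 7.12 and 8.12.

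The genes lowest with IL-6 included Retnla, Arg1 and Mgl2, known markers of IL-4-treated Mϕs. Rnase2a (chr14:51255262-51256112), an eosinophil-associated ribonuclease, measured 1572, 1330 and 1733 FPKM with IL-4 and 1.37, 2.17 and 2.12 FPKM with IL-6. Its difference was -9.62 log2 units (SE 0.206, adjusted p = 2.97e-07), a ratio of 818 between the means. Retnla, which encodes resistin-like α, measured 13044, 10230 and 24325 FPKM with IL-4 and 19.7, 26.1 and 27.9 FPKM with IL-6 (-9.25). IL-4 #3 was the highest, and all IL-4 libraries lay above all IL-6 libraries. Arg1 (chr10:24915221-24927484), the arginase that turns arginine into ornithine and urea, measured 1227, 1176 and 730 FPKM with IL-4 and 2.06, 3.48 and 5.33 FPKM with IL-6 (-8.19, SE 0.359, adjusted p = 2.5e-06). Ccl24, the eosinophil chemokine eotaxin-2, measured 250, 175 and 260 FPKM with IL-4 and 0.686, 0.473 and 0.905 FPKM with IL-6 (-8.20).

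Mgl2, a galactose-binding lectin of alternatively activated Mϕs, measured 550, 566 and 516 FPKM with IL-4 and 2.18, 2.81 and 3.17 FPKM with IL-6 (-7.61). Dcstamp and Ocstamp, membrane proteins needed for cell fusion of Mϕs and osteoclasts, stood at 38.7 to 41.4 FPKM and 11.1 to 22.6 FPKM with IL-4. With IL-6 Dcstamp stood at 0.208 to 0.425 FPKM, and Ocstamp rested on 3, 4 and 1 fragments. Their differences were -6.66 and -7.19 log2 units, the latter set in part by the added 0.1 FPKM. The same holds for Gzma, granzyme A of cytotoxic lymphocytes, with 1, 4 and 4 fragments with IL-6 against 953, 611 and 1609 with IL-4, and for the homeobox gene Msx3 with 0, 2 and 4 against 985, 747 and 1180. The other members of the lowest 12 were Eef1a2, a translation elongation factor (-7.68), Ear2, a further eosinophil-associated ribonuclease (-7.16), and Lipn, a lipase (-6.59). Lipn differed most among IL-4 libraries, at 47.1, 35.4 and 10.9 FPKM.

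The most abundant transcripts also changed places. Chil3, the chitinase-like protein Ym1, took 2.28% to 2.93% of all fragments in the IL-4 libraries and 0.098% to 0.115% in the IL-6 libraries. It measured 13967, 15916 and 17926 FPKM with IL-4 and 601, 684 and 705 FPKM with IL-6 (-4.58 log2 units, SE 0.198). Lyz2, lysozyme M of myeloid cells, took 0.589% to 0.755% of fragments with IL-4 and 2.35% to 2.50% with IL-6, and differed by 1.88 log2 units. Apoe, the lipid-carrying apolipoprotein E, measured 307, 363 and 526 FPKM with IL-4 and 5410, 7102 and 7033 FPKM with IL-6 (4.06). Spp1, the secreted matrix protein osteopontin, measured 111, 142 and 96.7 FPKM with IL-4 and 3190, 2667 and 2473 FPKM with IL-6 (4.58). Psap, the sphingolipid activator precursor, and Ftl1, the ferritin light chain, were among the 5 most abundant genes with IL-6 and were not called (-0.24 and -0.48).

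The control libraries showed which cytokine stood away from CSF-1 alone. IL-4 against control called 13.8% of tested genes (1769) and IL-6 against control called 5.23% (670). Among the 2643 genes that differed between the cytokines, the IL-4 estimate was the larger in size for 1876 (71.0%). Both comparisons share the control libraries, and IL-6 against control is also a comparison between the library sets, so the set and the cytokine cannot be told apart there. Opposite movement, meaning called against control with both cytokines and with opposite sign, was found for 88 genes up with IL-6 and down with IL-4 (3.33% of the called genes) and 45 genes down with IL-6 and up with IL-4 (1.70%). IL-4 alone moved 516 genes down (19.5%) and 296 up (11.2%), where alone means that the other cytokine had neither an adjusted p under 0.05 nor a log2 difference of 0.5. IL-6 alone moved 138 genes up (5.22%) and 43 down (1.63%). Both cytokines moved 46 genes to the same side of control by different amounts. The other 1471 genes (55.7%) had no clear class, and 945 of them were called against control with neither cytokine.

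These class counts depended on single libraries and on the library set. The 88 genes became 48 without Control #3, 55 without Control #2, 54 without IL-6 #2 and 55 without IL-6 #3. The 45 genes became 28 without Control #3. The 181 genes moved by IL-6 alone became 112 without Control #3, 120 without Control #2, 115 without IL-6 #2 and 108 without IL-6 #3. With the library set as a term in the model, the 88, 45, 812 (IL-4 alone) and 181 genes became 24, 8, 349 and 49.

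**Figure D2:**
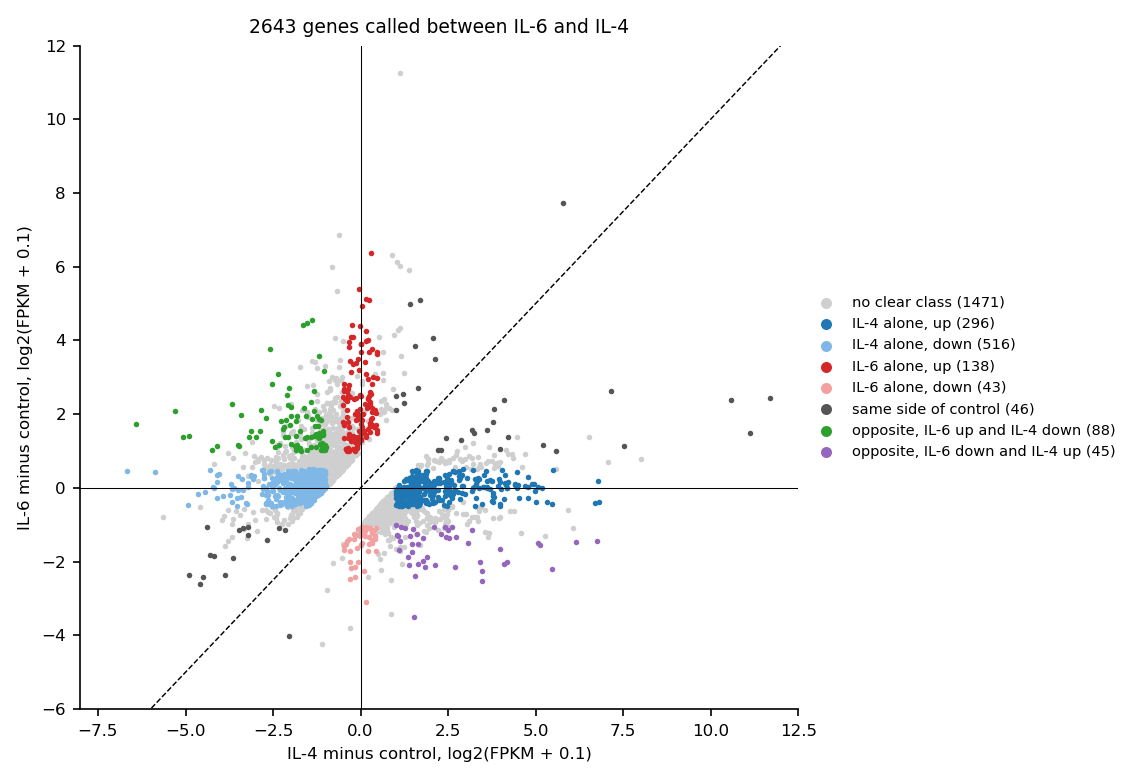
Log2 difference of IL-4 from control (horizontal) against log2 difference of IL-6 from control (vertical) for the 2643 genes called between IL-6 and IL-4; each point is 1 gene, coloured by class, and the dashed line marks equal differences. Both axes use the same 3 control libraries, so the axes are not independent. The 88 genes of the upper left moved up with IL-6 and down with IL-4, and the 45 genes of the lower right the other way.

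Among the genes that moved in opposite directions, several act in the matrix or in blood. Thbs1 (chr2:118111876-118127133), the matrix and platelet protein thrombospondin-1, measured 206, 111 and 128 FPKM in control, 34.8, 39.7 and 10.9 FPKM with IL-4 and 1032, 939 and 1048 FPKM with IL-6. The control libraries lay between the others without overlap. Ednrb measured 18.7, 10.3 and 12 FPKM in control, 2.58, 2.79 and 1.32 FPKM with IL-4 and 218, 168 and 168 FPKM with IL-6. Mmp14, a membrane-bound collagenase, measured 29.0, 30.7 and 23.8 FPKM in control, 2.2, 2.5 and 1.59 FPKM with IL-4 and 139, 136 and 127 FPKM with IL-6. Mefv, which encodes the inflammasome sensor pyrin, stood at 7.70 to 9.66 FPKM in control, 0.771 to 2.47 FPKM with IL-4 and 68.1 to 78.1 FPKM with IL-6. Hp, the hemoglobin-binding acute-phase protein haptoglobin, stood at 24.7 to 43.4 FPKM, 6.49 to 13 FPKM and 224 to 244 FPKM in the same order. F13a1 and the cytoskeletal gene Epb41l3 were also among the 8 with the largest opposite movement in this direction.

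In the other direction Mmp12 (chr9:7344381-7369499), the Mϕ elastase, measured 90.6, 106 and 152 FPKM in control, 1164, 1463 and 1205 FPKM with IL-4 and 20.3, 17.7 and 20.7 FPKM with IL-6. The IL-6 libraries lay below every control library and the IL-4 libraries above. Atp6v0d2, a subunit of the lysosomal proton pump used by osteoclasts, measured 147, 169 and 195 FPKM in control, 580, 654 and 506 FPKM with IL-4 and 37.1, 46.9 and 45.2 FPKM with IL-6. Clec4b1, a C-type lectin, measured 8.73, 12.8 and 11.5 FPKM in control, 49.1, 56.6 and 126 FPKM with IL-4 and 1.57, 2.66 and 3.16 FPKM with IL-6. Angptl2, Eef1a2, Vsig8, Ankrd13b and Qpct, the enzyme that forms N-terminal pyroglutamate, made up the rest, with log2 differences between the cytokines of -3.99 to -7.68.

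Other genes fell in the classes where, by the rule above, a single cytokine stood away from control. For IL-6 against control, the library set and the cytokine cannot be told apart. With IL-4 alone and up, Ocstamp, Msx3, Pkp2 (a desmosome protein), Srpx2 and Hebp2 (a heme-binding protein) were under 0.2 FPKM in all control and IL-6 libraries and at 5.71 to 22.6 FPKM in the IL-4 libraries. With IL-4 alone and down, Spic, the transcription factor of red-pulp Mϕs, measured 12.9, 16.3 and 13.4 FPKM in control, 0.663, 0.868 and 0.698 FPKM with IL-4 and 15.8, 19.0 and 19.1 FPKM with IL-6. Gpr162, Cd4, the membrane protein gene Tmem176a and Cxcl10, an interferon-induced chemokine at 3.02 to 5.70 FPKM in control and 0.0556 to 0.220 FPKM with IL-4, followed the same course. With IL-6 alone and up, Nrg1, the synaptotagmin gene Syt13, Socs3, Vcan (the matrix proteoglycan versican) and the immunoglobulin segment Igkv14-126 led the class. With IL-6 alone and down, Ckb, brain-type creatine kinase, measured 61.1, 85.4 and 80.3 FPKM in control, 93.8, 97.6 and 116 FPKM with IL-4 and 20.4, 24.7 and 24.0 FPKM with IL-6. Clec10a, Mgll (monoacylglycerol lipase) and the signalling adaptors Lat2 and Blnk followed at log2 differences of -1.75 to -1.90.

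Transcripts of the signalling route itself differed as well. Socs3 measured 2.91, 2.28 and 1.61 FPKM in control, 2.68, 3.23 and 1.76 FPKM with IL-4 and 74.7, 80.9 and 85.5 FPKM with IL-6 (4.96 log2 units against IL-4, SE 0.262, adjusted p = 6.22e-06). The IL-4 and control libraries overlapped, and the IL-6 libraries lay above all of them. Socs1, an inhibitor of Jak kinases, showed the converse, with 31.2, 28.2 and 21.3 FPKM with IL-4 and 1.72, 1.53 and 1.31 FPKM with IL-6 (-4.05). Cish, a further inhibitor of the SOCS family, measured 11.4, 10.9 and 6.75 FPKM with IL-4 and 0.656, 0.530 and 0.730 FPKM with IL-6 (-3.70). Of 16 cytokine signal inhibitors tested, 3 were higher and 4 lower (6 higher and 4 lower without IL-4 #1).

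Receptor chains for IL-4 were higher with IL-6. Il4ra measured 19.6, 19.1 and 14.3 FPKM with IL-4 and 99.0, 101 and 109 FPKM with IL-6, with controls at 27.6 to 30.6 FPKM (2.55 log2 units, adjusted p = 6.22e-06). Il13ra1 (2.67) and Il2rg, the common γ chain (2.08), were higher with IL-6 in the same way, as was Jak3, the kinase that binds the γ chain (2.27). Stat3 measured 15.7, 13.9 and 6.99 FPKM with IL-4 and 29.7, 27.6 and 29.0 FPKM with IL-6 (1.31, adjusted p = 0.00789; 0.95 without IL-4 #3, under the limit of 1). Stat6 measured 55.6, 58.4 and 33.3 FPKM with IL-4 and 62.3, 60.9 and 62.7 FPKM with IL-6, and was not called (0.38, adjusted p = 0.176).

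The IL-6 receptor chains were less certain. Il6ra measured 11.7, 9.32 and 4.18 FPKM with IL-4 and 18.4, 17.1 and 16.5 FPKM with IL-6 (1.16, adjusted p = 0.034). Il6st measured 62.5, 60.3 and 19.9 FPKM with IL-4 and 18.3, 15.3 and 16.1 FPKM with IL-6 (-1.35, adjusted p = 0.0458). IL-4 #3 lay low in both. The Il6ra call was lost without IL-4 #3 (0.73), without Control #3 (adjusted p = 0.0556) and without IL-6 #1, #2 or #3 (0.0983, 0.0849 and 0.0813). The Il6st call was lost without IL-4 #1 (adjusted p = 0.0986), IL-4 #2 (0.118), Control #1, #2 or #3 (0.0529, 0.0522 and 0.0722) and IL-6 #1, #2 or #3 (0.0959, 0.117 and 0.113), and was -1.89 without IL-4 #3. Over the 16 receptor chains, Jak kinases and Stat factors, 7 were higher and 1 lower, with a median of 0.87.

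Stat dimers bind palindromes of TTC and GAA, with 3 bases between them for most Stats and 4 for Stat6. Promoters of 42 of the 59 named genes were found in the RefSeq annotation of GRCm38.p6, and 5 of them held TTC, any 3 or any 4 bases, and GAA (each form reads the same on both strands, and the forms were searched separately) within the 250 bases before the start. They are shown as the promoters of named genes that hold these letters, with the match in capitals. A match is a description and not a binding site.

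Socs3 (chr11:117969487-117969545, minus strand, match 154 to 146 bases before the start): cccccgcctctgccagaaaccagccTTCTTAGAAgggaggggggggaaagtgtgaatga
Ankrd13b (chr11:77490137-77490195, minus strand, 128 to 120 bases before): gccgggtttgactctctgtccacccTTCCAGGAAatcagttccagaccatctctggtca
Retnla (chr16:48842439-48842498, plus strand, 145 to 136 bases before): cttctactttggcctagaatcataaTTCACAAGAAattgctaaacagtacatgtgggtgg
Hebp2 (chr10:18546126-18546185, minus strand, 84 to 75 bases before): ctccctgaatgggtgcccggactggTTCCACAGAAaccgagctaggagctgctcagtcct
Srpx2 (chrX:133908360-133908419, plus strand, 40 to 31 bases before): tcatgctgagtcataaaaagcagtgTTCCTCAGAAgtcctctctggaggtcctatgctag

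Socs3, up with IL-6 alone, held the form with 3 bases, and Retnla, Hebp2 and Srpx2, all higher with IL-4, the form with 4; Ankrd13b, higher with IL-4, held the form with 3. The same letters were found in promoters of many other genes. The form with 3 bases occurred in 6.16% of 1202 promoters of genes higher with IL-6, 6.07% of 626 of genes lower, 6.01% of 9002 of tested genes and 7.18% of all 27025. The form with 4 bases occurred in 5.32%, 5.11%, 4.72% and 5.86% of the same promoters.

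Gene lists were read against the shares over all tested genes, 13.5% higher and 7.13% lower. Counts are of list members that passed the filter, and a member that passed only through the group where it is high had to differ. Of 26 IL-4/Stat6 response genes, 24 were lower with IL-6 and 1 higher (Kdm6b, a histone demethylase, 1.93), with a median of -3.69. Retnla, Ccl24, Arg1 and Mgl2 led the list, and Mrc1, the mannose receptor, was its single member not called (-0.74). Of 26 IL-6/Stat3 response genes, 15 were higher and 1 lower, with a median of 1.45. Saa3, Socs3, Hp and Cp (ceruloplasmin, 3.23) were the leading members, and Myc, the growth-promoting transcription factor, was the lower one, at 15.2, 18 and 15.6 FPKM with IL-4 and 1.72, 2.32 and 2.52 FPKM with IL-6. Members not called included Cebpb, Junb and Fos at 0.42, 0.73 and 0.23.

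**Figure D3:**
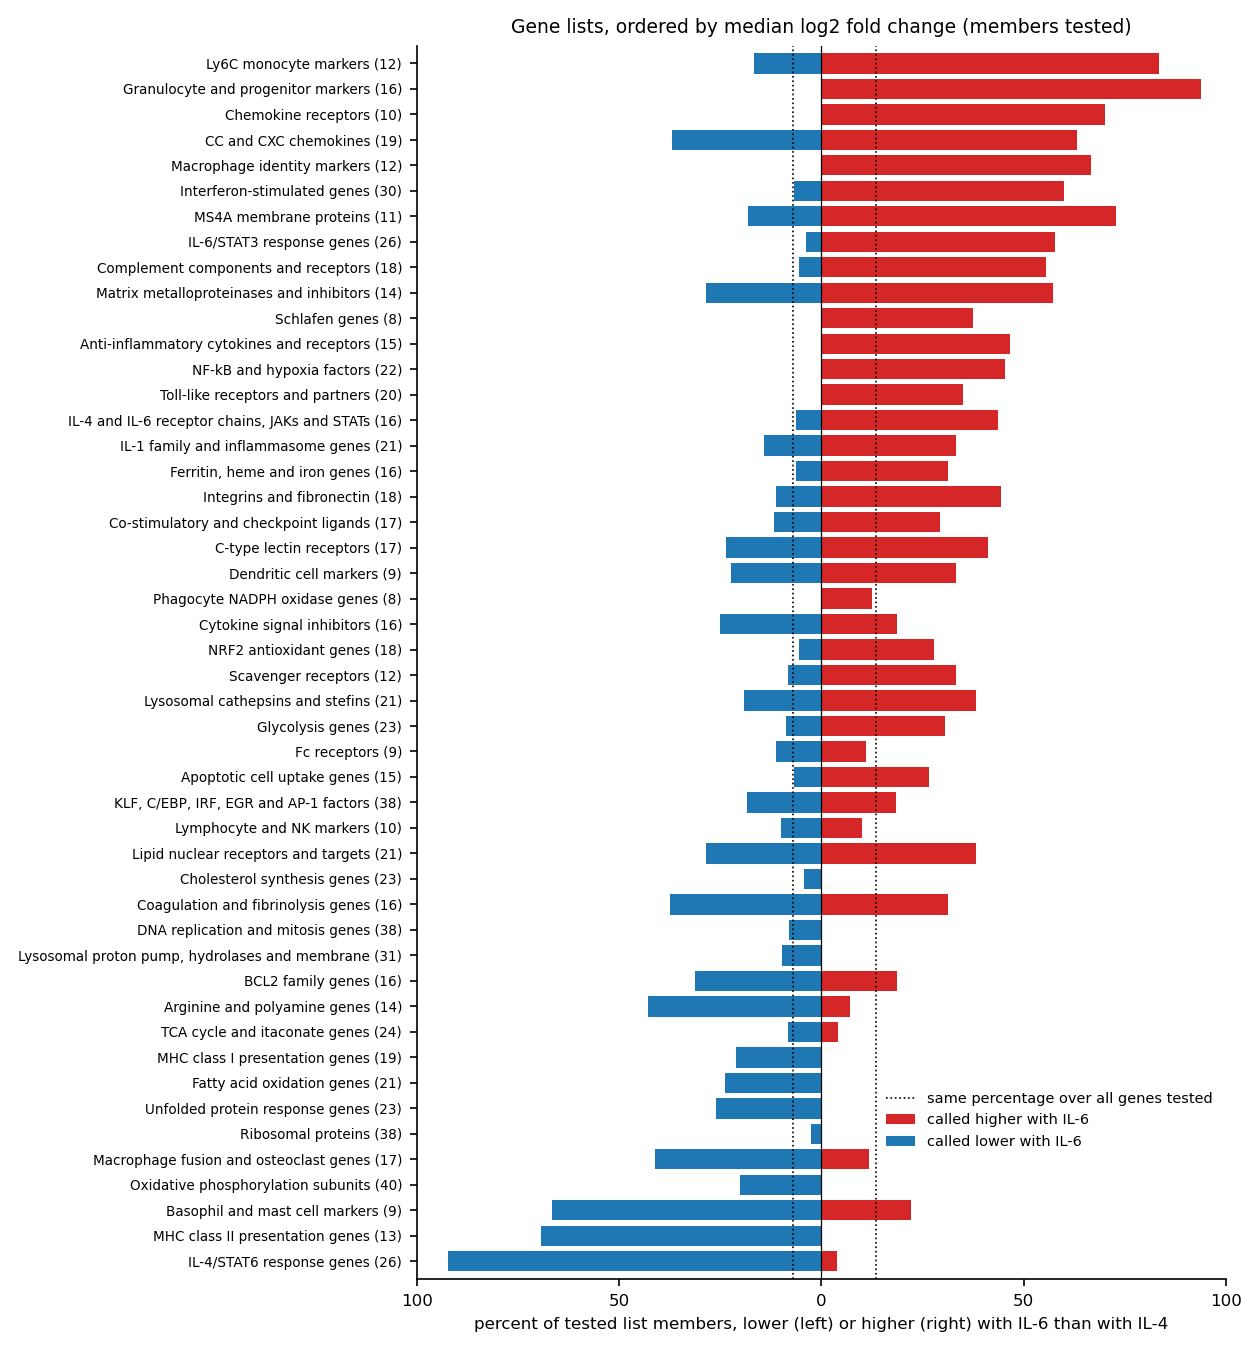
Percent of the tested members of each gene list that were lower (bars to the left) or higher (bars to the right) with IL-6 than with IL-4, for lists with at least 8 tested members (number in brackets), ordered by median log2 difference. Dotted lines mark the shares over all tested genes, 7.13% lower and 13.5% higher. Ly6C monocyte markers stand at the top, and IL-4/STAT6 response genes and MHC class II genes at the bottom.

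Of 26 chemokine genes in the list 19 passed the filter, and of these 12 were higher and 7 lower with IL-6, Ccl8 in 9 of 20 alternatives. Cxcl2, a neutrophil attractant, measured 0.665, 0.878 and 0.909 FPKM with IL-4 and 28.0, 21.6 and 25 FPKM with IL-6 (4.77). Pf4, platelet factor 4, measured 107, 119 and 206 FPKM with IL-4 and 1000, 1553 and 2042 FPKM with IL-6 (3.41). Ccl5, Ppbp and Cxcl16 were higher too, at 3.67, 3.79 and 2.85. Ccl2 and Ccl7, which attract monocytes through Ccr2, were instead higher with IL-4: Ccl2 measured 150, 69.5 and 40.9 FPKM with IL-4 and 14.9, 13.5 and 13 FPKM with IL-6 (-2.44), and Ccl7 differed by -2.93. Ccl6, a constitutive chemokine of myeloid cells, measured 2256, 2494 and 2735 FPKM with IL-4 and 434, 569 and 591 FPKM with IL-6 (-2.24). Ccl22 and Ccl24 were also higher with IL-4.

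Of 10 chemokine receptors, 7 were higher with IL-6, and Ccr1 at -0.31, not called, held the lowest value. Ccr2, the receptor of inflammatory monocytes, measured 3.30, 1.28 and 0.586 FPKM with IL-4 and 42.4, 38.5 and 44.5 FPKM with IL-6 (4.82). Cx3cr1, the fractalkine receptor, measured 0.0195, 0.0513 and 0.0946 FPKM with IL-4 and 6.52, 5.38 and 5.49 FPKM with IL-6 (5.27). Cxcr4 and Cxcr3 followed at 2.34 and 2.32.

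Receptors that sense microbes differed in both directions. Of 20 Toll-like receptors and partners 7 were higher, with a median of 0.87. Tlr2, the receptor of bacterial lipopeptides, measured 3.29, 2.82 and 2.47 FPKM with IL-4 and 118, 110 and 104 FPKM with IL-6, with controls at 44.6 to 55.0 FPKM (5.23). Cd14, which hands lipopolysaccharide to Tlr4, measured 15.0, 19.3 and 34.0 FPKM with IL-4 and 288, 296 and 316 FPKM with IL-6 (3.80). Tlr4 itself was not called (-0.22). Tlr9, the DNA sensor, was higher by 4.27 (SE 0.881), but IL-4 #3 stood at 0.0432 FPKM against 1.67 and 1.57 in the other IL-4 libraries. Among 17 C-type lectin receptors, 7 were higher, led by Clec4e and Clec4n (Dectin-2, 18.7 to 21.4 FPKM with IL-4 and 494 to 544 FPKM with IL-6, 4.67), and 4 lower, led by Mgl2 and Clec4b1. Clec7a, the β-glucan receptor Dectin-1, was among the lower ones (-2.0). Of 12 scavenger receptors 4 were higher, among them Marco and Stab1 (4.86), and Cd36, the receptor of oxidized lipids, was lower, at 1027, 1107 and 628 FPKM with IL-4 and 24.2, 28.0 and 29.3 FPKM with IL-6 (-5.04).

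Antigen presentation by MHC class II was the converse. Of 13 genes 9 were lower with IL-6, with a median of -2.57. Cd74, the invariant chain, measured 4402, 4130 and 8732 FPKM with IL-4, 284, 330 and 370 FPKM with IL-6 and 281, 382 and 354 FPKM in control (-4.05). H2-Ab1, H2-Aa and H2-Eb1, the class II chains, differed by -3.86, -3.59 and -3.52. IL-6 and control libraries overlapped for Cd74 and the class II chains H2-Ab1 and H2-Eb1, and 8 of the 9 genes fell in the class moved by IL-4 alone. Among 19 class I presentation genes 4 were lower, led by Psmb10, an immunoproteasome subunit (-2.02), and H2-T23 (-1.87); H2-K1 and H2-D1, the classical chains, were not called (-0.01 and -0.11).

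Co-stimulatory and checkpoint ligands went both ways, with 5 of 17 higher and 2 lower. Pdcd1lg2, the PD-1 ligand PD-L2, measured 93.6, 80.5 and 64.7 FPKM with IL-4 and 0.714, 1.08 and 0.732 FPKM with IL-6 (-6.41). Cd274, the ligand PD-L1, was not called, at 83.7, 63.0 and 22.6 FPKM with IL-4 and 60.9, 48.6 and 47.8 FPKM with IL-6 (0.08, SE 0.435). Cd40, the TNF-family receptor that the study follows, measured 5.21, 3.98 and 6.33 FPKM with IL-4 and 6.60, 4.94 and 5.83 FPKM with IL-6, against 2.4, 2.23 and 2.62 FPKM in control. The cytokine groups overlapped (0.17, SE 0.195, adjusted p = 0.492). Cd86, a CD28 ligand, was higher with IL-6 (2.31), as were the TNF-family ligands Tnfsf14 (4.21) and Tnfsf9 (2.74).

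Complement genes leaned to IL-6, with 10 of 18 higher and 1 lower (median 1.45). C3, the central component, measured 42.7, 28.3 and 12.7 FPKM with IL-4 and 189, 181 and 183 FPKM with IL-6 (2.88). Cfb and C4b were higher by 4.80 and 4.10, though both stayed under 10 FPKM with IL-6. Itgax, a chain of complement receptor 4 and the dendritic-cell marker CD11c, was the lower one, at 374, 399 and 228 FPKM with IL-4 and 6.51, 6.37 and 6.33 FPKM with IL-6 (-5.64). Among 9 Fc receptors Fcgr1 was higher (2.06) and Fcer1a lower (-3.11).

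Interferon-stimulated genes were higher with IL-6 for 18 of 30 and lower for 2, with a median of 1.60. Oas2 measured 0.414, 0.378 and 0.242 FPKM with IL-4, 8.89, 14.7 and 11.8 FPKM with IL-6 and 5.41, 5.68 and 6.95 FPKM in control (4.73). Ifit1 measured 0.958, 0.621 and 0.472 FPKM with IL-4 and 8.12, 9.79 and 7.05 FPKM with IL-6 (3.46), and Irf7, the factor that amplifies interferon production, differed by 2.76. Against control, 14 of the 30 were lower with IL-4 and 1 was higher with IL-6. Gbp2 was lower with IL-6 (-2.44), with IL-4 libraries at 262, 92.6 and 44.2 FPKM.

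IL-1 family and inflammasome genes were higher for 7 of 21 and lower for 3. Beside Il1b and Mefv, Il18 measured 3.23, 2.66 and 3.01 FPKM with IL-4 and 24.0, 24.1 and 26.8 FPKM with IL-6 (3.03), and the sensor Nlrp3 differed by 2.69. The receptors Il1rl2 and Il1rl1, the latter the IL-33 receptor, were lower (-4.07 and -3.12). Of 15 anti-inflammatory cytokines and receptors 7 were higher (median 1.22). Il10 stayed low, at 0.313, 0.0756 and 0.210 FPKM with IL-4 and 1.66, 1.33 and 1.99 FPKM with IL-6 (2.62), while Tgfb1, at 51.8 FPKM with IL-4 and 51.9 FPKM with IL-6 on average, was not called. Of 22 NF-κB and hypoxia factors 10 were higher (median 0.97). Hif1a, the oxygen-regulated factor, measured 21.9, 19.3 and 4.81 FPKM with IL-4 and 123, 99.3 and 112 FPKM with IL-6 (3.11, SE 0.523), and Nfkbiz, an atypical inhibitor of the family, differed by 3.90.

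Effectors that act on arginine, matrix and clotting split by gene. Of 14 arginine and polyamine genes 6 were lower and 1 higher. Slc7a2, the arginine transporter that serves arginase, measured 73.1, 58.1 and 18.7 FPKM with IL-4 and 0.226, 0.506 and 0.431 FPKM with IL-6 (-6.51). Arg2, the mitochondrial arginase, was the higher one, at 2.01, 2.82 and 1.91 FPKM with IL-4 and 32.1, 34.3 and 32.9 FPKM with IL-6 (3.84), so the arginases differed in opposite directions. Of 14 metalloproteinases and inhibitors 8 were higher, led by Mmp14 (5.96) and Mmp2 (3.56), and 4 lower, led by Mmp12 (-6.02) and Mmp13 (-5.01). Of 16 coagulation genes 5 were higher, led by F13a1 and Thbs1, and 6 lower. Among the lower ones F7, coagulation factor VII, measured 350, 362 and 433 FPKM with IL-4 and 28.2, 37.8 and 31 FPKM with IL-6 (-3.56).

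Integrins and fibronectin gave 8 of 18 higher and 2 lower. Fn1, fibronectin, measured 207, 255 and 85.9 FPKM with IL-4 and 6.65, 6.65 and 8.37 FPKM with IL-6 (-4.51), while Spp1 and the integrin chain Itga9 were higher (4.58 and 4.25). Among 21 cathepsins and stefins 8 were higher, led by the stefin genes BC100530, Stfa1 and Stfa3, whose close copies can share reads, and 4 lower. Ctsk, cathepsin K of bone resorption, measured 163, 232 and 277 FPKM with IL-4 and 7.01, 8.04 and 7.62 FPKM with IL-6 (-4.84). Of 17 Mϕ fusion and osteoclast genes 7 were lower and 2 higher. Of 31 genes of the lysosomal proton pump, hydrolases and membrane 3 were lower, all of them pump subunits (Atp6v0d2, Atp6v0a1 and Atp6v1b2).

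Transcription factors of the KLF, C/EBP, IRF, EGR and AP-1 families moved in both directions, 7 of 38 higher and 7 lower. After median-ratio scaling 7 were higher and 12 lower. Batf3, Egr2 and Irf4 were lower with IL-6 (-3.94, -3.68 and -3.11), and Egr2 moved in opposite directions from control. Maf was the gene of this list highest with IL-6, at 6.90, 4.62 and 1.84 FPKM with IL-4 and 58.4, 52.3 and 58.6 FPKM with IL-6 (3.82). Of 21 lipid nuclear receptors and targets 8 were higher and 6 lower. Pparg, the lipid-sensing receptor, measured 44.5, 50.1 and 45.1 FPKM with IL-4 and 2.85, 5.08 and 4.73 FPKM with IL-6 (-3.47). Its known target Cd36 was lower as well, while the cholesterol exporter Abca1 was higher, at 27.9, 25 and 5.4 FPKM with IL-4 and 183, 150 and 153 FPKM with IL-6 (3.36). Of 23 cholesterol synthesis genes 1 was lower (Dhcr7, -1.15).

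Of 23 glycolysis genes 7 were higher and 2 lower. Slc16a3, the lactate exporter, measured 3.98, 3.95 and 3.58 FPKM with IL-4 and 32.1, 35.1 and 37.2 FPKM with IL-6 (3.15), and Pfkl, liver phosphofructokinase, differed by 2.55. Hk3 and Pfkp, a hexokinase and the platelet phosphofructokinase, were lower (-1.75 and -1.74). Of 24 TCA cycle genes 1 was higher, Acod1, which makes itaconate (3.24), and 2 lower, Mdh2 and Mdh1 (-1.35 and -1.12). The lower ones were 5 after median-ratio scaling and 4 after quantile normalization. Of 21 fatty acid oxidation genes 5 were lower.

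All 40 subunits of oxidative phosphorylation had estimates below 0 and 8 were called lower, with a median of -0.79. That count was 2 without IL-4 #3, 18 without IL-4 #1 and 14 after median-ratio scaling. Of 38 ribosomal protein genes 1 was lower, with a median of -0.69; 14 were lower without IL-4 #1 and 0 without IL-4 #3, where the median was -0.24. In Rpl32, a large-subunit protein, IL-4 #3 measured 1522 FPKM against 471 and 587 FPKM in the other IL-4 libraries and 332 to 366 FPKM with IL-6. Deviations of IL-4 #3 from its group fell with gene length (Spearman rho of -0.432 over genes, which are not independent). Those of IL-4 #1 and IL-4 #2 rose with gene length (0.368 and 0.416), and the IL-6 libraries gave 0.293, -0.244 and -0.223. Deviations of 3 libraries from their mean sum to 0 and so depend on each other. The part of gene length in these lists was not tested. Of 38 DNA replication and mitosis genes 3 were lower, with a median of -0.26; without IL-4 #3 7 were lower, and without IL-4 #1 2 were higher and 2 lower with a median of 0.12.

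Of 23 unfolded protein response genes 6 were lower with IL-6. Trib3 and Ddit3, stress-induced regulators, measured 11.4, 40.2 and 72.4 FPKM and 24.3, 60.2 and 170 FPKM with IL-4, and 0.821 to 1.08 FPKM and 8.97 to 10.5 FPKM with IL-6. The IL-4 libraries were spread widely, yet lay above all IL-6 libraries (-4.91 and -2.66). Of 18 NRF2 antioxidant genes 5 were higher and 1 lower. Sod2, the mitochondrial superoxide dismutase, measured 21.7, 20.2 and 23.7 FPKM with IL-4 and 139, 126 and 121 FPKM with IL-6 (2.55). Of 16 ferritin, heme and iron genes 5 were higher and 1 lower, and of 8 NADPH oxidase genes Cybb, the catalytic subunit, was higher (1.78). The BCL2 family split, with Bmf and Pmaip1, which promote cell death, among 3 of 16 higher (3.28 and 2.14), and the survival genes Bcl2a1d and Bcl2a1a among 5 lower (-3.06 and -2.92). Reads of the Bcl2a1 copies can be shared, so values of single copies are uncertain.

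Of 11 MS4A membrane protein genes 8 were higher with IL-6 and 2 lower, led by Ms4a6b at 1.92, 1.52 and 0.749 FPKM with IL-4 and 20.9, 19.2 and 19.5 FPKM with IL-6 (3.83). Of 8 Schlafen genes 3 were higher, Slfn4, Slfn8 and Slfn5 (2.58, 2.28 and 2.05). Of 15 genes for uptake of apoptotic cells 4 were higher and 1 lower. Gas6, the ligand that bridges dying cells to Mertk and Axl, measured 23.8, 21.9 and 16.4 FPKM with IL-4 and 189, 194 and 179 FPKM with IL-6 (3.19), and Mfge8, a second bridging protein, was lower (-1.37).

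Markers of Mϕs and of other marrow cells moved with the cytokines. In bulk RNA, fewer cells of a type and less RNA per cell cannot be told apart. The 8 of 12 Mϕ identity markers that were higher with IL-6 became 6 without IL-4 #3, and the median of 1.71 became 1.11. Their summed FPKM in control ran from 16874 to 19217, mostly from Lyz2. Csf1r, the CSF-1 receptor, measured 361, 306 and 168 FPKM with IL-4 and 658, 573 and 614 FPKM with IL-6 (1.21). Of 12 Ly6C monocyte markers 10 were higher and 2, Chil3 and Fn1, lower. Of 16 granulocyte and progenitor markers 15 were higher with a median of 2.15, and their summed FPKM ran from 2314 to 4246 with IL-4, 8563 to 11811 with IL-6 and 5237 to 9182 in control. S100a8, a calcium-binding protein of neutrophils and monocytes, measured 505, 427 and 933 FPKM with IL-4 and 2172, 2709 and 2826 FPKM with IL-6 (2.12). Prtn3, a neutrophil granule protease, measured 5.30, 2.88 and 3.07 FPKM with IL-4 and 29.7, 48.1 and 49.4 FPKM with IL-6 (3.48). The part of these cells in the differences of Hp, Fcnb, Clec4e, Il1b and the stefins was not tested.

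Of 9 basophil and mast cell markers 6 were lower with IL-6 and 2 higher, with sums of 55.8 to 90.5 FPKM with IL-4 and 10.2 to 30.5 FPKM with IL-6. Mcpt8, a basophil protease, measured 24.4, 13.4 and 18 FPKM with IL-4 and 0.890, 4.30 and 2.77 FPKM with IL-6 (-2.97). Their part in genes such as Il1rl1 and Fcer1a, which are on the same list, was not tested. Of 9 dendritic cell markers 3 were higher and 2 lower, and of 6 eosinophil markers 1 was higher and 1 lower. Among 10 lymphocyte and NK markers Cd4 was higher and Trac, the constant chain of the T-cell receptor, lower at 0.867 FPKM on average with IL-4. Trac was not called without IL-4 #1 or without IL-4 #3, where its mean lay below the filter. Cd79a and Pax5 of B cells were not called. Of 7 muscle markers 1 was lower, and the 3 intestinal markers tested were not called. Acta2 and Pecam1, the tested members of a list of fibroblast and stromal markers, were higher, by 1.12 and 1.06. Neither was called after median-ratio scaling or quantile normalization, and 1 of them was called without IL-4 #1 or without IL-4 #3.

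**Figure D4:**
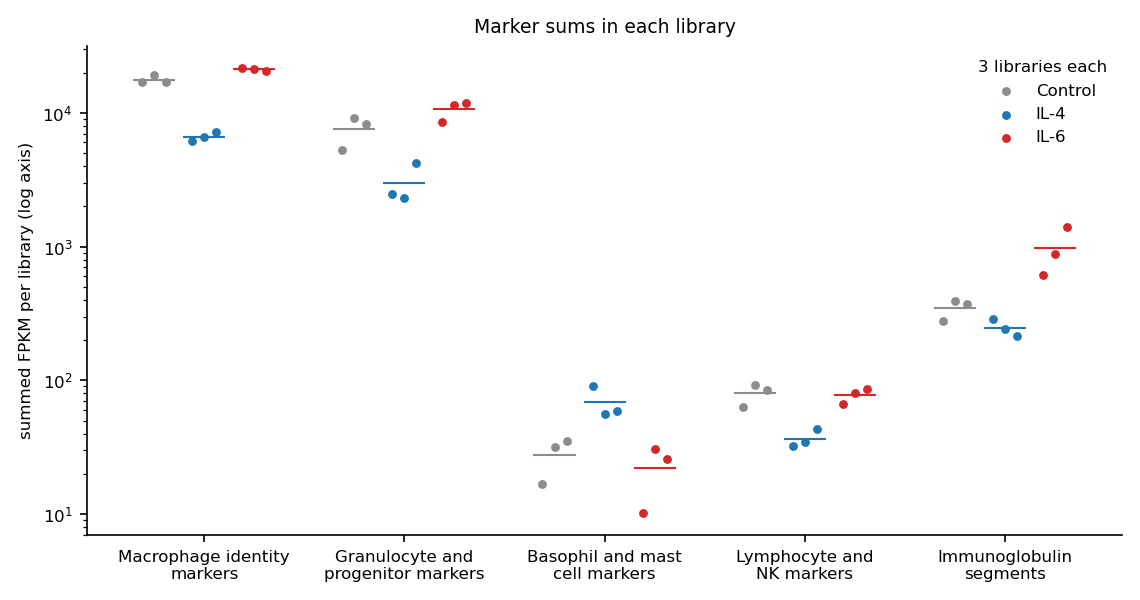
Summed FPKM of marker lists in each library (log axis) for control, IL-4 and IL-6; each point is 1 library. Sums of Mϕ identity markers, granulocyte and progenitor markers, lymphocyte and NK markers and immunoglobulin segments are higher with IL-6 than with IL-4. Sums of basophil and mast cell markers are lower. The lymphocyte and NK list holds Cd4, and without Cd4 its sums are not higher with IL-6. The median log2 difference of the tested members of this list is -0.02.

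Immunoglobulin gene segments, a group picked after its values were seen, were higher with IL-6 for 71 of 147 tested and lower for 1, with a median of 2.31. Of 429 segments 147 passed the filter, and a segment that passed only through the group where it is high had to differ. Against control, 18 were called higher and 0 lower with IL-6, and 0 higher and 6 lower with IL-4. The summed FPKM of all 429 segments measured 276, 395 and 372 in control, 288, 240 and 216 in the IL-4 libraries and 609, 887 and 1408 in the IL-6 libraries. All IL-6 sums lay above all others, and the count was 69 without IL-4 #3 and 71 without IL-4 #1. Constant heavy chains were higher for 5 of 7, variable heavy segments for 32 of 54 and variable κ segments for 27 of 63; near-identical segments share reads, so single segments are uncertain. Ighg2c, an IgG heavy chain, measured 0.419, 0.946 and 0.491 FPKM with IL-4 and 2.68, 13.8 and 13.3 FPKM with IL-6 (3.55), whereas Ighm, the IgM chain, was not called (0.47). Jchain, which joins antibody polymers, measured 1.41, 0.773 and 0.976 FPKM with IL-4 and 5.19, 6.24 and 11.3 FPKM with IL-6 (2.69, adjusted p = 0.000509). The B-cell marker Cd79a measured 5.68, 6.66 and 6.57 FPKM with IL-4 and 4.51, 7.78 and 9.77 FPKM with IL-6 (0.15). Of other genes known from antibody-producing cells, Mzb1, Xbp1 and Pou2af1 were not called (0.23, -0.12 and -0.30), Prdm1 was higher (1.66), and Sdc1 and Irf4 were lower (-2.26 and -3.11). Tnfrsf17 lay below the filter on low values, at 0.209 FPKM on average with IL-4 and 0.0485 FPKM with IL-6. The part of antibody-producing cells was not tested.

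Called genes lay next to each other at several places in the genome. Ordering 11319 tested genes with coordinates gave 96 runs of at least 3 neighbours called in the same direction, 77 higher and 19 lower with IL-6, which held 342 genes. Over all tested genes 13.5% were called higher and 7.13% lower, and how many runs these shares alone would give was not tested. Some neighbours are a gene and its opposite-strand model, such as Kdm6b and Kdm6bos, and were counted separately. The longest run, of 7 genes, was the Ly6 cluster at chr15:74955051-75159126 (Ly6e, Ly6i, Ly6a, Gm5960, Ly6c2, I830127L07Rik and Ly6g), with differences of 1.30 to 6.00. At chr5:90759360-90905938 the chemokine genes Cxcl5, Ppbp, Pf4, Cxcl3 and Cxcl2 were all higher, by 2.83 to 4.77. At chr7:140948958-141017924 Ifitm5, Ifitm2, Ifitm1, Ifitm3 and Ifitm6, interferon-induced membrane proteins, were higher by 2.03 to 5.93. Ifitm1 was the largest of them, at 1.66, 1.90 and 2.45 FPKM with IL-4 and 119, 125 and 135 FPKM with IL-6.

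At chr5:43818885-44102032 Bst1 and Cd38, related NAD-consuming enzymes, stood beside Gm16015 and Prom1, all higher. Bst1 measured 7.15, 7.72 and 6.81 FPKM with IL-4 and 41.0, 42.1 and 39.5 FPKM with IL-6 (2.49). At chr19:34550694-34650009 Ifit2, Ifit3, Ifit3b and Ifit1 were higher by 2.88 to 3.46. Among the lower runs, the ribonuclease genes Rnase6, Rnase2b, Ang2 and Rnase2a at chr14:51123908-51256112 differed by -1.52 to -9.62, and Bcl2a1d, Bcl2a1a, Bcl2a1b and Gm29094 at chr9:88723285-89215471 by -1.77 to -3.06. Members of such families are similar in sequence and can share reads, so their values are not fully separate measurements.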

How the data were processed

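RNA of 9 mouse macrophage cultures (CSF-1 alone, with IL-4 or with IL-6; 3 libraries each) was sequenced from stranded, poly(A)-selected libraries. The authors deposited FPKM values for every gene; the submitters' processing notes name STAR 2.4.2a, Cufflinks 2.2.1 and GRCm38. FPKM multiplied by GENCODE M21 exon length gave whole fragments (within 0.05) for all 92602 values of under 50 fragments, so fragments were recovered for genes with an M21 entry (94.8% of identifiers) and a limit of 3 fragments per library was used as the floor; such counts cover counting error only. Libraries held 29988160 to 39909571 fragments.

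All 9 libraries and 3 groups were fitted together on log2(FPKM + 0.1) with limma 3.58.1 (R 4.3.3; trend and robust, 6 residual degrees of freedom), for genes with a mean of at least 0.5 FPKM over the 6 cytokine libraries. P-values are two-sided and Benjamini-Hochberg adjusted over all 12804 genes; no gene list was tested, and lists are described by counts and medians. Cells came from 3 mice, and the libraries of each group carry the numbers #1 to #3, which were not used in the fit.

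Named genes were the 12 highest and 12 lowest called genes with at least 5 FPKM in the higher group and no overlap of libraries, the 8 largest of each opposite direction, the 5 largest for each cytokine alone and direction, the 5 most abundant, up to 4 called members of each list by size, 8 genes of the cytokine routes and members of neighbour runs; unnamed gene models were left out, and some genes that met the rule are not reported here. Other genes given with values, such as Cd40, Cd274, Tlr4, Cd68, Gas6, Bst1, the immunoglobulin genes and the antibody-cell genes beside them, were chosen after their values were seen. The gene lists and the comparison itself were chosen with earlier results of these data known. A check on simulated fragments used 11336 genes of the IL-6 and IL-4 comparison. The test recovered 59 of 67 genes changed by 1.5 log2 units, 66 of 67 changed by 2 and 66 of 66 changed by 3. It made 5 false calls. The simulation gave every gene the same spread and held no outlying library, gene length trend or library set. Its calls therefore do not measure the error in these data. Promoters were read from a RefSeq table of GRCm38.p6. Python 3.11.15 was used for tables and figures. The alternatives covered the pseudocount, the filter, scaling, the replicate block, the library set and a gene length trend. They also covered limma voom on recovered fragments, the 6 cytokine libraries alone and each library left out in turn.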

Additional observations from a re-analysis of the deposited data

How the results depend on the processing

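The 20 alternatives kept 869 of the genes higher and 507 of the genes lower with IL-6 on the same call wherever they kept the gene. With a mean of at least 5 FPKM required, fewer genes were tested, and 771 were higher and 478 lower; the 88 genes up with IL-6 and down with IL-4, the 812 moved by IL-4 alone and the 181 moved by IL-6 alone became 53, 360 and 74. A pseudocount of 1 FPKM left 49 and 23 genes in the opposite classes, in place of 88 and 45, and quantile normalization gave 68 in place of 45. With the library set as a term, 24 and 8 genes moved in opposite directions, 349 with IL-4 alone and 49 with IL-6 alone; the cause of these shifts was not tested. Leaving out each library in turn gave 1307 to 2283 genes higher, 788 to 1053 lower, 48 to 110 and 28 to 66 in the opposite classes and 108 to 247 for IL-6 alone. The column headers end in m and a number, which no label explains, and no label ties a replicate number to a mouse. Deviations of same-numbered libraries correlated at 0.294, -0.0471 and 0.157 between IL-4 and IL-6. Between control and IL-4 they correlated at 0.532, -0.411 and 0.0772. The library set and IL-4 #3 also enter these deviations, so the values do not settle whether same-numbered libraries share a mouse. The fit with the replicate number as a block called 1843 genes higher and 922 lower, and the block moved no count over 1.5 times. Of 1165 values of 59 single genes, 1143 stayed on their side of the threshold, 22 fell short of it and 0 reversed. Most of the 59 genes were chosen for large differences, so this share does not describe the called genes as a whole. All 22 values that fell short belonged to Il6ra, Il6st and Stat3, which were not chosen by size. Lowly expressed genes rest on few fragments, 3 libraries per group limit the precision, and p-values measure only the spread between these libraries, which may be technical.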

Other observations

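The cytokine genes themselves were measured at low levels. Il4 transcript measured 1.03, 1.61 and 1.12 FPKM in the IL-4 libraries, 4.77, 5.49 and 4.96 FPKM in the IL-6 libraries and 3.69, 4.46 and 2.79 FPKM in control, and was called higher with IL-6 (1.96 log2 units, SE 0.222, adjusted p = 0.000332). Il6 transcript lay below the filter, at 0.663, 0.951 and 0.640 FPKM in the IL-4 libraries and 0.0472, 0.114 and 0.0402 FPKM in the IL-6 libraries.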
